A study of Mus musculus with 8 samples.

Results

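The Cyp3a family is a group of cytochrome P450 genes, and 6 of its mouse members (Cyp3a11, Cyp3a13, Cyp3a16, Cyp3a25, Cyp3a44 and Cyp3a59) were examined here in liver that lacked the telomeric protein RAP1. They were taken from 19752 gene symbols on the array because Cyp3a11 and Cyp3a59 had some of the smallest p values among genes that were higher in the knockout. Differences between genotypes are therefore a description of these 6 genes and were not tested. The members were read by 9 of 55681 probes, found by matching each probe's transcript accession to its symbol. All 9 probes were well above background on all 8 arrays and passed the filter on dim probes.

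Each of the 8 arrays held Cy3-labelled total RNA from the liver of 1 mouse. The 4 knockout mice were Rap1 -/- and the 4 controls were wild-type, all 10 weeks old and of C57BL6/129SV background (90% to 10%). Per the study, the knockout is constitutive and affects the whole body: Rap1 flox/flox mice were crossed with EIIa-cre mice, a line that drives the recombinase in the early embryo, and the cre allele was later bred out. The labels give neither sex nor feeding state. The study describes liver profiles of 10-week-old females before the onset of obesity and also of 10-week-old females after fasting. The labels do not tell which of these the arrays hold. In whole liver, fewer cells of a type and less RNA per cell cannot be told apart.

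CYP3A enzymes sit in the endoplasmic reticulum of hepatocytes and intestinal cells and oxidize steroids, bile acids and many drugs, with electrons supplied by P450 reductase and cytochrome b5. In liver their genes are classic targets of PXR and CAR, nuclear receptors that sense foreign compounds and bile acids, pair with RXR and bind repeated half-sites in DNA, while HNF4A sets their basal expression. Most mouse members lie side by side in 1 cluster and resemble each other closely in sequence. Several are expressed mainly in females.

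All 6 genes are on mouse chromosome 5. The sequence just before the start of a gene can show how near its copies are, so 4 of these windows are shown. They stand for the 2 groups of like promoters in the family, and for the genes whose signal differed most between genotypes (Cyp3a11, Cyp3a59 and Cyp3a16) beside a close relative whose groups overlapped (Cyp3a25). Each holds the 250 bases before the annotated gene start in RefSeq's GRCm38.p6 annotation, read 5′ to 3′ on the gene's own strand. Capitals mark matches, on either strand, to the nuclear receptor half-sites AGGTCA and AGTTCA, the HNF4 motif CAAAGTCCA and the TATA-like motif TATAAA. The windows are chr5:145879855-145880104 (minus strand) for Cyp3a11, chr5:145469724-145469973 (minus strand) for Cyp3a16, chr5:146009619-146009868 (minus strand) for Cyp3a25 and chr5:146079008-146079257 (plus strand) for Cyp3a59.
Cyp3a11: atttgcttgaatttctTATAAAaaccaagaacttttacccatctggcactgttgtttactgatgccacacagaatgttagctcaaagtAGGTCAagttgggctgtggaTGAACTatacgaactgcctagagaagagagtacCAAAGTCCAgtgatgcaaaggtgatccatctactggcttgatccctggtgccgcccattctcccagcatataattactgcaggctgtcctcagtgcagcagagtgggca
Cyp3a16: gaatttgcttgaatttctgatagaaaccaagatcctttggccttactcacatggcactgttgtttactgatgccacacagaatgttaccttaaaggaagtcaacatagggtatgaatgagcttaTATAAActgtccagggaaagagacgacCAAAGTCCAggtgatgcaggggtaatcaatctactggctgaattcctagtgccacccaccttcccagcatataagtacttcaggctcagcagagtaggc
Cyp3a25: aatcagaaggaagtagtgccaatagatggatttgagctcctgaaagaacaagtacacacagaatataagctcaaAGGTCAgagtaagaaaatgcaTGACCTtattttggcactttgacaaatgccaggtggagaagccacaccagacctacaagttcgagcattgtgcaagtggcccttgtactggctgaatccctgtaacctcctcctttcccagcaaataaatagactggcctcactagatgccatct
Cyp3a59: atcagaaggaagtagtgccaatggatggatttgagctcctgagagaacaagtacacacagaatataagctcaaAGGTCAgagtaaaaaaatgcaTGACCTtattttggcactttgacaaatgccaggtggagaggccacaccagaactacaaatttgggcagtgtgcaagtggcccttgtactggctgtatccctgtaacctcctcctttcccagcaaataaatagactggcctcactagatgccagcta

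In global alignments the windows of Cyp3a25 and Cyp3a59 were identical over 95.2% of the 250 bases, and those of Cyp3a16 and Cyp3a44 over 94.4%. Cyp3a11 was nearest to Cyp3a16 (80% identical) and Cyp3a44 (76.8%) and shared 64.8% with Cyp3a25 and 63.6% with Cyp3a59. Cyp3a13 stood apart, with 56.4% to 64.8% shared with the other members.

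The half-site AGGTCA was present in 4 of the 6 members, against 14.02% of 32851 windows of this length over the annotation. It lay at position -162 in Cyp3a11 and at -150 in Cyp3a44, counted back from the gene start. Cyp3a25 and Cyp3a59 each held a pair of it on opposite strands, at -176 and -155 and at -177 and -156. AGTTCA was found in Cyp3a11 alone among the members (11.84% of all windows). The HNF4 motif, found in 0.3835% of all windows, was at -109 in Cyp3a11 and at -99 in Cyp3a16. TATAAA was in Cyp3a11, Cyp3a16 and Cyp3a44 (12.37% of all windows). The telomeric repeat TTAGGG, the sequence RAP1 is known for at chromosome ends, was in 0 of the 6 windows, against 9.318% of all windows. These matches describe letters only.

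Signal was compared as log2 of the processed intensity minus the same array's 75th percentile, and levels of different probes are not comparable with each other. The percentile ran from 219.8 to 227 on the Rap1 -/- arrays and from 179 to 209 on the wild-type arrays, so it was higher on every knockout array. The share of probes well above background was between 50.03% and 65.3%, and 0 spots were saturated. Arrays 1 and 2 of each genotype were on slide 1 and arrays 3 and 4 on slide 2. The wild-type arrays occupied positions 1 and 2 of each slide and the knockout arrays positions 3 and 4, so position and genotype cannot be told apart. Terf2ip, the gene of RAP1, was read by 2 probes. Probe A_52_P381806 averaged -6.28 ± 0.43 in Rap1 -/- liver, where 0 of 4 arrays were well above background, and 0.14 ± 0.09 in wild-type liver (SD, n = 4 each). Probe A_55_P2094079 averaged 0.29 ± 0.18 and -0.92 ± 0.22 and was well above background on all 8 arrays. Where either sits relative to the deletion is not stated in the sources used here.

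Of the 6 members, Cyp3a11, Cyp3a59 and Cyp3a16 had all 4 Rap1 -/- arrays above all 4 wild-type arrays, with signal 1.41 to 1.52 times as high. For Cyp3a16 that separation was lost with normexp and quantile normalization and in the authors' table. Groups overlapped for Cyp3a25, Cyp3a13 and Cyp3a44. The median difference over the 6 genes was 0.35 on the log2 scale, and over all 14066 tested genes it was 0.02, with the quartiles at -0.09 and 0.14. Without scaling between arrays the family's median was 0.53 and that of all genes 0.20. In the limma fit over all 14066 genes, 2 genes (0.0142%) passed an adjusted p of 0.05, Chst4 and Zfhx3, both lower in Rap1 -/- liver and both named after their values were seen. None of the 6 members passed: 0 had an adjusted p under 0.05 and 3 an unadjusted p under 0.05, against 894 genes (6.36%) overall. Groups did not overlap, with the knockout above, for 3 of the 6 members and for 423 of the 14062 genes measured on every array (3.01%). Because the members were chosen on this contrast, nothing follows from these shares.

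**Figure D1:**
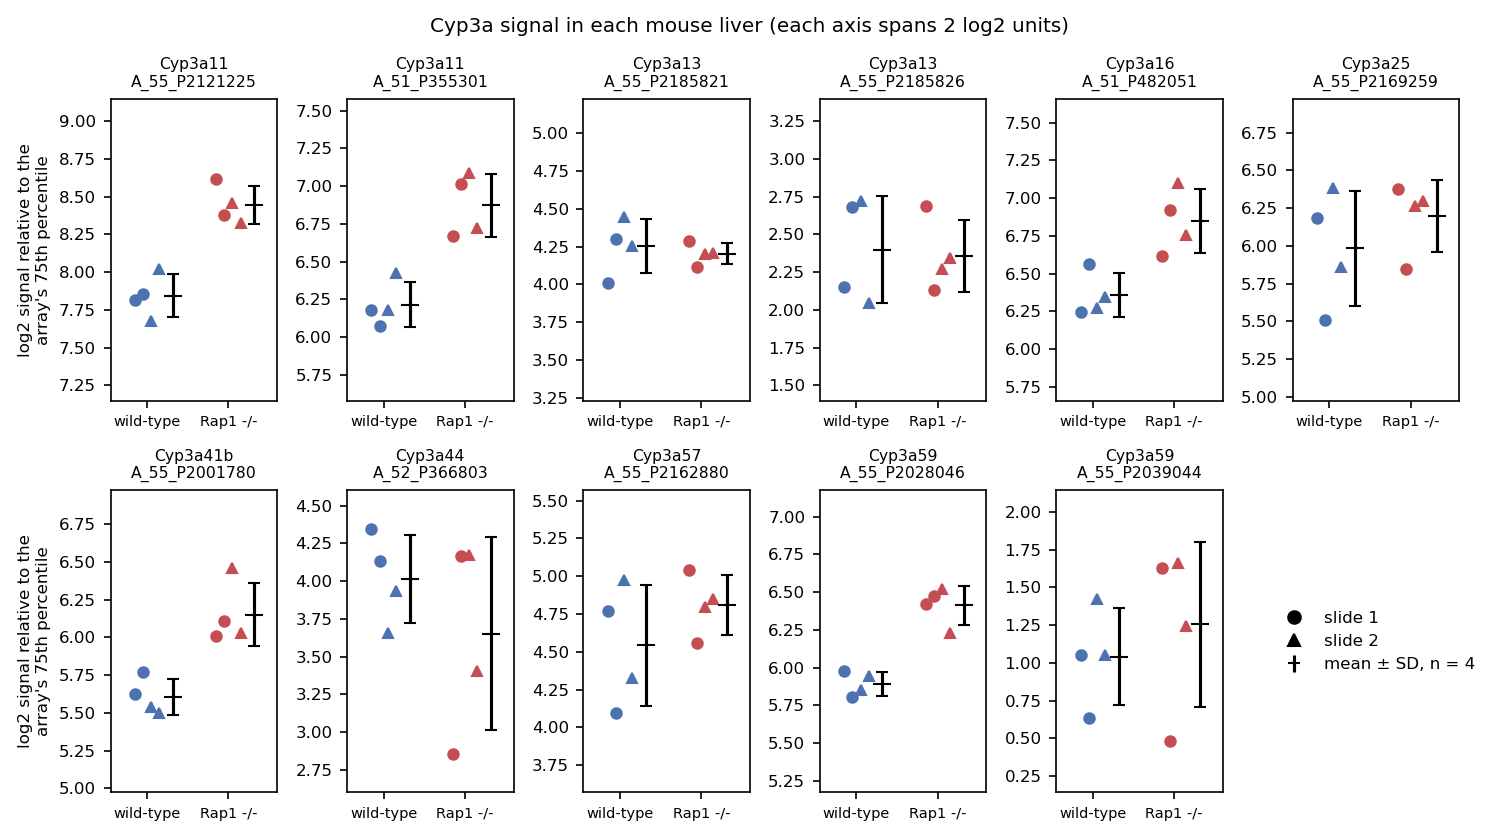
Each panel plots 1 probe, with the log2 signal relative to the array's 75th percentile on the vertical axis, 1 point per mouse (blue, wild-type, and red, Rap1 -/-, with circles for slide 1 and triangles for slide 2) and the mean ± SD in black. The red points lie above all blue ones for both Cyp3a11 probes, Cyp3a16, Cyp3a41b and Cyp3a59 probe A_55_P2028046, and mix with them in the other 6 panels.

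Cyp3a11 is the mouse gene usually set beside human CYP3A4, the main drug-metabolizing P450 of human liver. Probe A_55_P2121225 (NM_007818) gave a log2 signal of 8.62, 8.38, 8.46 and 8.32 in the 4 Rap1 -/- livers and of 7.81, 7.86, 7.68 and 8.02 in the 4 wild-type livers. The lowest knockout liver lay 0.30 above the highest wild-type liver, wild-type mouse 4. The means were 8.44 ± 0.13 and 7.84 ± 0.14 (SD, n = 4 each), which is a difference of 0.60 (SE 0.11) or 1.52-fold. On the linear scale, before any scaling between arrays, the knockout signals were 86364, 73718, 77219 and 72751 and the wild-type signals 40250, 44905, 42222 and 54407, so the groups were apart there too.

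A second probe of the same transcript, A_51_P355301, gave 6.67, 7.02, 7.09 and 6.72 in Rap1 -/- liver and 6.18, 6.07, 6.18 and 6.42 in wild-type liver. Again every knockout liver was above every wild-type liver, with wild-type mouse 4 the nearest. The difference was 0.66 (SE 0.14, fit over probes), or 1.58-fold. The pair of probes did not rank the mice of a genotype alike: knockout mouse 1 was highest by the first probe and lowest by the second, and the correlation of their deviations from the genotype means was 0.12 over 8 arrays.

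Cyp3a59 is a close relative and near neighbour of Cyp3a25 in the cluster. Probe A_55_P2028046 (NM_001105160) gave 6.42, 6.48, 6.52 and 6.23 in Rap1 -/- liver and 5.98, 5.81, 5.85 and 5.94 in wild-type liver. The groups did not overlap, and the lowest knockout liver was mouse 4. Its means were 6.41 ± 0.13 and 5.89 ± 0.08 (SD, n = 4 each), a difference of 0.52 (SE 0.10) or 1.43-fold.

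A second and much dimmer probe assigned to Cyp3a59, A_55_P2039044, did not separate the genotypes. It gave 1.63, 0.48, 1.66 and 1.25 in Rap1 -/- liver and 1.05, 0.64, 1.42 and 1.05 in wild-type liver. Its lowest value, like its highest, belonged to a knockout liver. The difference was 0.21 (SE 0.28), and with the mean of both probes the gene's difference was 0.37. The deviations of the Cyp3a59 probes from the genotype means correlated at 0.07 over 8 arrays. The separation of the groups thus came from the brighter probe alone.

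Cyp3a16 belongs to the members known for fetal and female expression. Its probe A_51_P482051 (NM_007820) gave 6.62, 6.92, 7.10 and 6.76 in Rap1 -/- liver and 6.25, 6.57, 6.27 and 6.35 in wild-type liver. Knockout mouse 1 and wild-type mouse 2 were only 0.05 apart. In the authors' table the groups overlapped, with a lowest knockout value of 14.38 and a highest wild-type value of 14.40 on that table's log2 scale. The means were 6.85 ± 0.21 and 6.36 ± 0.15 (SD, n = 4 each), a difference of 0.49 (SE 0.13) or 1.41-fold.

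Cyp3a44, whose promoter was nearly that of Cyp3a16 and which is also a female-expressed member, did not share its pattern. Probe A_52_P366803 (NM_177380) gave 2.86, 4.17, 4.17 and 3.41 in Rap1 -/- liver and 4.34, 4.13, 3.65 and 3.93 in wild-type liver. Knockout mouse 1 was the lowest of the 8, 2 other knockout mice lay just above wild-type mouse 2, and the groups overlapped. The means were 3.65 ± 0.64 and 4.01 ± 0.29 (SD, n = 4 each), a difference of -0.36 (SE 0.30) that was -0.10 without knockout mouse 1.

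Cyp3a25 is a member expressed in liver and intestine. Probe A_55_P2169259 (NM_019792) gave 6.38, 5.85, 6.27 and 6.30 in Rap1 -/- liver and 6.19, 5.51, 6.38 and 5.86 in wild-type liver. The highest liver of all was wild-type mouse 3, and mouse 2 was the lowest in each genotype, although the replicate numbers do not pair the mice. The difference was 0.21 (SE 0.20). It fell to 0.05 without wild-type mouse 2 and was 0.34 without wild-type mouse 3.

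Cyp3a13 lies apart from the other members on chromosome 5, with 97 tested genes in between, and is expressed in intestine as well as liver. Probe A_55_P2185821 (NM_007819) gave 4.29, 4.11, 4.20 and 4.21 in Rap1 -/- liver and 4.01, 4.30, 4.45 and 4.25 in wild-type liver. The 4 knockout values lay within the range of the wild-type values, with a difference of -0.05 (SE 0.11) that was 0.13 without scaling between arrays. Its second probe, A_55_P2185826, gave 2.69, 2.13, 2.27 and 2.34 against 2.15, 2.68, 2.72 and 2.04, a difference of -0.04 (SE 0.19). The deviations of its probes from the genotype means correlated at 0.74 over 8 arrays.

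A further pair of family genes had a matched probe on the array and was not among the members. Cyp3a41b, a female-expressed relative of Cyp3a16 whose promoter window was 92.8% identical to it, was at 6.01, 6.11, 6.46 and 6.03 in Rap1 -/- liver and at 5.62, 5.77, 5.54 and 5.50 in wild-type liver. Its groups did not overlap and its difference was 0.54 (SE 0.13), or 1.46-fold. Cyp3a57, a relative of Cyp3a25 (89.6% identical), differed by 0.27 (SE 0.20) with overlapping groups. Ranked by the unadjusted p that had served to choose the family, Cyp3a11 and Cyp3a59 stood 13th and 14th of 14066 genes, Cyp3a41b 36th and Cyp3a16 75th, and the next was Cyp3a57 at 3539. Probe sequences were not used here, so whether probes of such close copies read each other's transcripts was not tested.

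**Figure D2:**
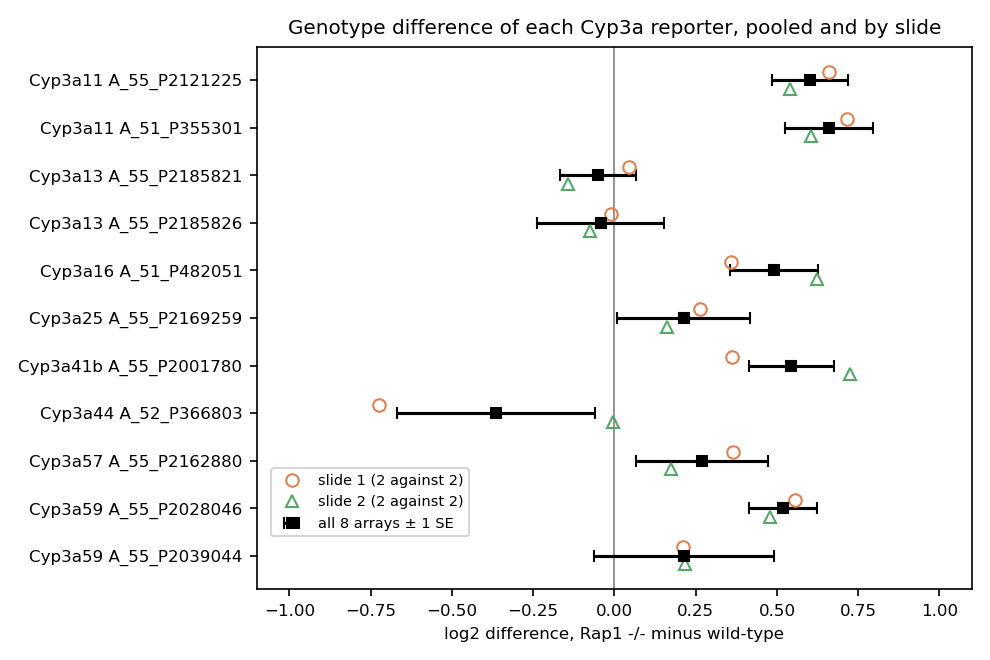
Squares give the log2 difference between Rap1 -/- and wild-type liver for each Cyp3a probe over all 8 arrays with 1 SE either way, from the fit over probes, and open symbols the same difference within slide 1 (circles) and slide 2 (triangles), 2 arrays against 2. The probes of Cyp3a11, Cyp3a16, Cyp3a41b and the brighter Cyp3a59 probe lie above 0 on both slides, whereas Cyp3a44 is at -0.72 on slide 1 and near 0 on slide 2.

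The slides repeat the comparison with different mice, 2 per genotype on each. The difference of Cyp3a11 was 0.66 on slide 1 and 0.54 on slide 2, that of Cyp3a59 0.56 and 0.48, and that of Cyp3a16 0.36 and 0.62. Cyp3a25 gave 0.26 and 0.16, and Cyp3a13 0.04 and -0.14. Cyp3a44 moved most, from -0.72 to -0.0041. An interaction of slide and genotype in limma tested whether these effects differed. The choice of genes was not free of this question. Cyp3a11 and Cyp3a59 were chosen for a small p over both slides, which is smaller where the slides agree. Their likeness between slides was thus favoured by the choice, and nothing follows from it. For Cyp3a44 the effect on slide 2 was 0.72 higher than on slide 1 (SE 0.63, adjusted p = 0.9997), and for Cyp3a11 it was 0.12 lower, written as -0.12 (SE 0.25, adjusted p = 0.9997). None of the 6 members passed, as did 0 of all 14066 genes (0%), of which 470 had an unadjusted p under 0.05. With 2 mice per cell of this design the intervals are wide.

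The members also differed in how much mice of the same genotype varied. The SD within genotypes was 0.11 for Cyp3a59 and 0.14 for both Cyp3a11 and Cyp3a13, below the lower quartile of all tested genes (0.14). Cyp3a11 and Cyp3a59 were chosen for a small p, which a small SD favours, so nothing follows from their low SD. Cyp3a16 was at 0.18, close to the median of all genes (0.21), and Cyp3a25 at 0.32, close to the upper quartile (0.32). Cyp3a44 had an SD of 0.50, larger than that of 90.99% of genes. The genes with overlapping groups thus included both the most variable members and Cyp3a13, whose mice were close together.

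Correlations of deviations from the genotype means, over the same 8 arrays, describe which genes varied together from mouse to mouse with both genotypes pooled. The genotype with the larger spread weighs more in such an r, and whether an r held in each genotype was not tested. Cyp3a25 and Cyp3a57 were nearly parallel (r = 0.97), and the dimmer Cyp3a59 probe went with them (r = 0.83 with Cyp3a25 and 0.72 with Cyp3a57). The brighter Cyp3a59 probe did not (r = 0.01 with Cyp3a25). Cyp3a16, Cyp3a41b and Cyp3a44 formed the other group, with r = 0.86 between Cyp3a16 and Cyp3a41b, 0.74 between Cyp3a16 and Cyp3a44 and 0.66 between Cyp3a41b and Cyp3a44. Cyp3a16 and Cyp3a25 ran opposite to each other (r = -0.62).

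The promoter windows fell into similar groups, in which Cyp3a25, Cyp3a57 and Cyp3a59 were at least 89.6% identical to each other and Cyp3a16, Cyp3a41b and Cyp3a44 at least 92.8%. The exception was the brighter Cyp3a59 probe. Cyp3a44 thus went with Cyp3a16 in the r pooled over both genotypes, while its difference between genotypes had the other sign. The knockout mice weigh most in that r, since the SD of Cyp3a44 was 0.64 in Rap1 -/- and 0.29 in wild-type liver. Among the wild-type mice, mouse 1 was the highest for Cyp3a44 (4.34) and the lowest for Cyp3a16 (6.25). The points of each correlation share their arrays and scaling, and probes that read each other's transcripts would also vary together.

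**Figure D3:**
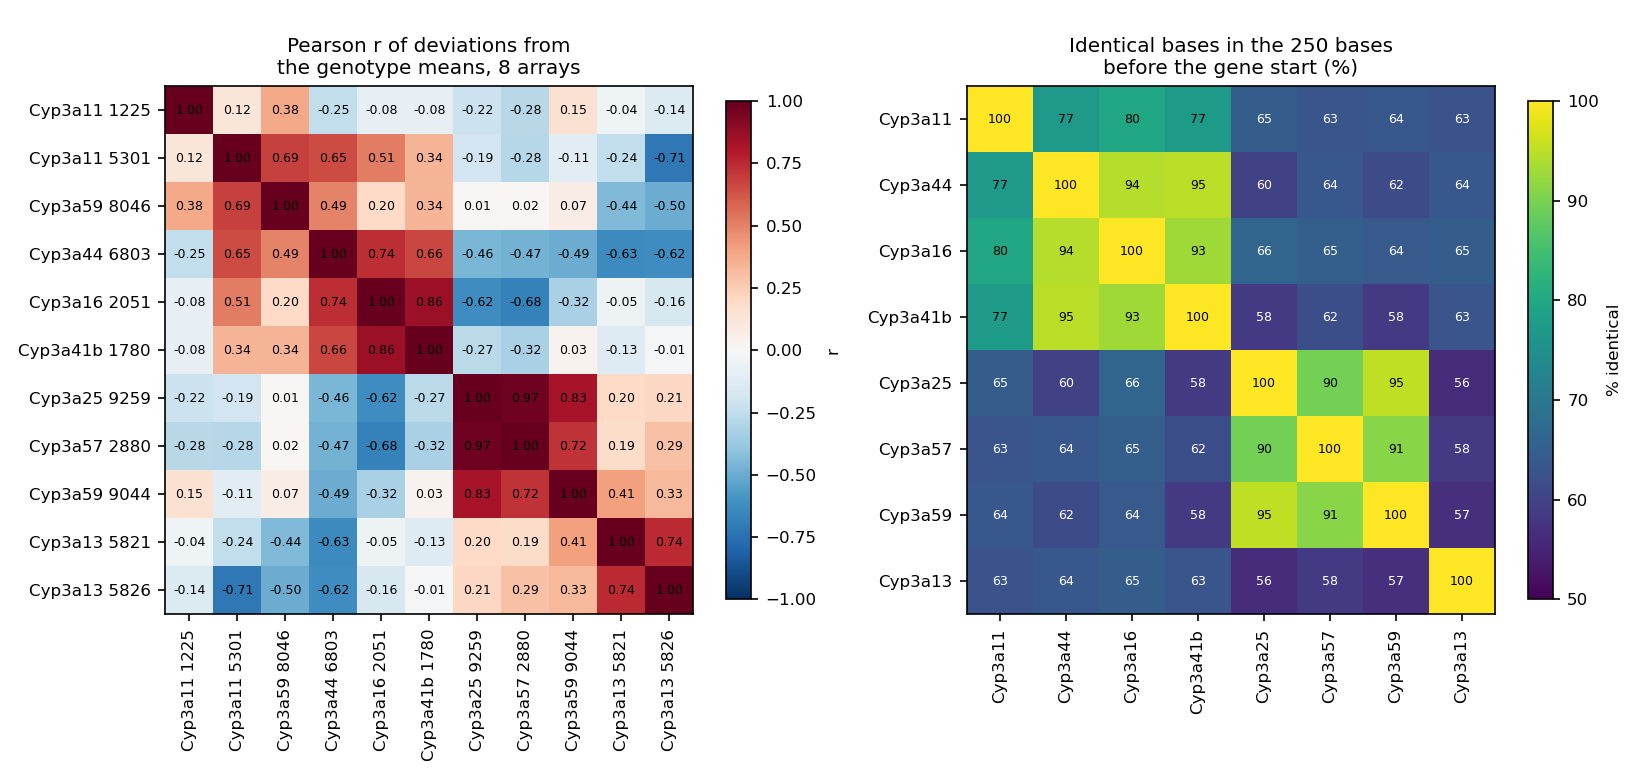
The left map gives Pearson's r between the deviations of 11 Cyp3a probes (named by gene and the last 4 digits of the probe) from their genotype means over 8 arrays, and the right map the percent of identical bases in the 250 bases before the start of 8 Cyp3a genes. Cyp3a16, Cyp3a41b and Cyp3a44 form one block and Cyp3a25 and Cyp3a57 another in both maps, and Cyp3a11 probe A_55_P2121225 has no r above 0.38.

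By its representing probe, A_55_P2121225, Cyp3a11 followed no other member closely: r was 0.38 with Cyp3a59, -0.08 with Cyp3a16, -0.04 with Cyp3a13, -0.22 with Cyp3a25 and -0.25 with Cyp3a44. The value for Cyp3a16 ran from -0.20 to 0.40 when each array was left out in turn, the highest without knockout mouse 1. By its second probe, and again pooled over both genotypes, Cyp3a11 went with Cyp3a59 (r = 0.69), Cyp3a44 (0.65) and Cyp3a16 (0.51). Among 14061 genes ranked by likeness to the representing probe, the named genes with the highest r were Drosha (0.95), Zfat (0.94), Dock9 (0.94), Stx1a (0.94) and Il5ra (0.93), and 95% of genes had an r under 0.55. With the second Cyp3a11 probe these 5 genes had an r between -0.16 and 0.39. The likeness was thus to that probe and did not extend to the second one. In limma their differences between genotypes ran from -0.30 to 0.45 (adjusted p = 0.79 to 0.99).

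The genes that lie beside the family were read in the order of the annotation. Between the first and last members of the main cluster, all 7 tested genes were Cyp3a genes. The 10 nearest tested genes outside it, 5 on each side and chosen after the family had been described, differed by -0.19 to 0.71 with a median of 0.06, 6 of them above 0. Beside Cyp3a13 the 10 nearest ran from -0.33 to 0.38, with a median of 0.01. In the limma fit 0 of these 20 neighbours passed an adjusted p of 0.05.

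The regulators of the family came next. Of 22 genes for PXR, CAR, their partners and the liver factors that drive Cyp3a genes, 21 were tested, and 0 passed an adjusted p of 0.05 in either direction (limma, 0 with an unadjusted p under 0.05). Their median difference was -0.05, with 6 of 21 above 0. PXR itself (Nr1i2) was at 3.91 ± 0.52 in Rap1 -/- and 3.87 ± 0.43 in wild-type liver (SD, n = 4 each). CAR (Nr1i3) was at 5.06 ± 0.30 and 5.10 ± 0.21. Foxa2, a pioneer factor of liver, differed by 0.29 (SE 0.17). Hnf4a differed by -0.17 (SE 0.16), Rxrb by -0.14 (SE 0.10) and Nr3c1, the glucocorticoid receptor, by 0.14 (SE 0.11).

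The electron donors and the haem supply of P450 enzymes gave no call either, with 0 of 14 past an adjusted p of 0.05 (limma, smallest adjusted p = 0.77). Of the 14, 1 had an unadjusted p under 0.05 in that fit, against 6.36% of all genes. The median difference was 0.08, and 9 of 14 were above 0. P450 reductase (Por) differed by -0.14 (SE 0.31, adjusted p = 0.96), cytochrome b5 (Cyb5a) by 0.22 (SE 0.10, adjusted p = 0.78) and Pgrmc1, a haem-binding partner of P450 enzymes, by 0.18 (SE 0.09). Uros, an enzyme of haem synthesis, differed by 0.36 (SE 0.12).

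Other genes that PXR and CAR are known to induce were compared with the family. Of 44 such genes outside it, 40 were tested and 0 passed (limma, smallest adjusted p = 0.38). An unadjusted p under 0.05 in that fit was found for 6 of the 40, against 894 of all 14066 genes (6.36%). Of the 40, 32 had a difference above 0, and the median was 0.17 beside 0.02 for all genes. The share of all genes above 0 was not counted, for this list or any other. This list was chosen with earlier results known, so nothing follows from its counts. Cyp2c55, a P450 strongly induced through these receptors, was at -0.91 ± 0.10 in Rap1 -/- and -1.53 ± 0.16 in wild-type liver (SD, n = 4 each). That is a difference of 0.62 (SE 0.11, adjusted p = 0.38), as large as that of Cyp3a11. Aldh1a1 and Aldh1a7, aldehyde dehydrogenases, differed by 0.44 (SE 0.13) and 0.43 (SE 0.13), and Gstm3, a glutathione transferase, by 0.33 (SE 0.10), each with an adjusted p of 0.77. Cyp2b10, the usual read-out of CAR, was at 6.92 ± 0.47 and 6.71 ± 0.16 (SD, n = 4 each), a difference of 0.21 (SE 0.22).

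The P450 genes outside the family were taken by name, and they include the P450 genes of the PXR and CAR target list. Of 86 with a matched probe, 69 were tested, 51 had a difference above 0 and the median was 0.15. None passed an adjusted p of 0.05 in limma (0 of 69). In the same fit 8 had an unadjusted p under 0.05, against 6.36% of all genes. Differences ran from -1.23 to 0.96. Apart from Cyp2c55, the smallest p belonged to Cyp2j5, an epoxygenase (0.33, SE 0.09), Cyp21a1, the steroid 21-hydroxylase (-0.74, SE 0.24), and Cyp2c50 (0.37, SE 0.15), each with an adjusted p of 0.77. The log2 of their summed relative signal was 12.77 to 12.82 in Rap1 -/- and 12.56 to 12.76 in wild-type liver, which did not overlap, nor did it without scaling (20.56 to 20.65 against 20.11 to 20.46). In the authors' table the groups did overlap, at 20.48 to 20.55 and 20.27 to 20.54.

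**Figure D4:**
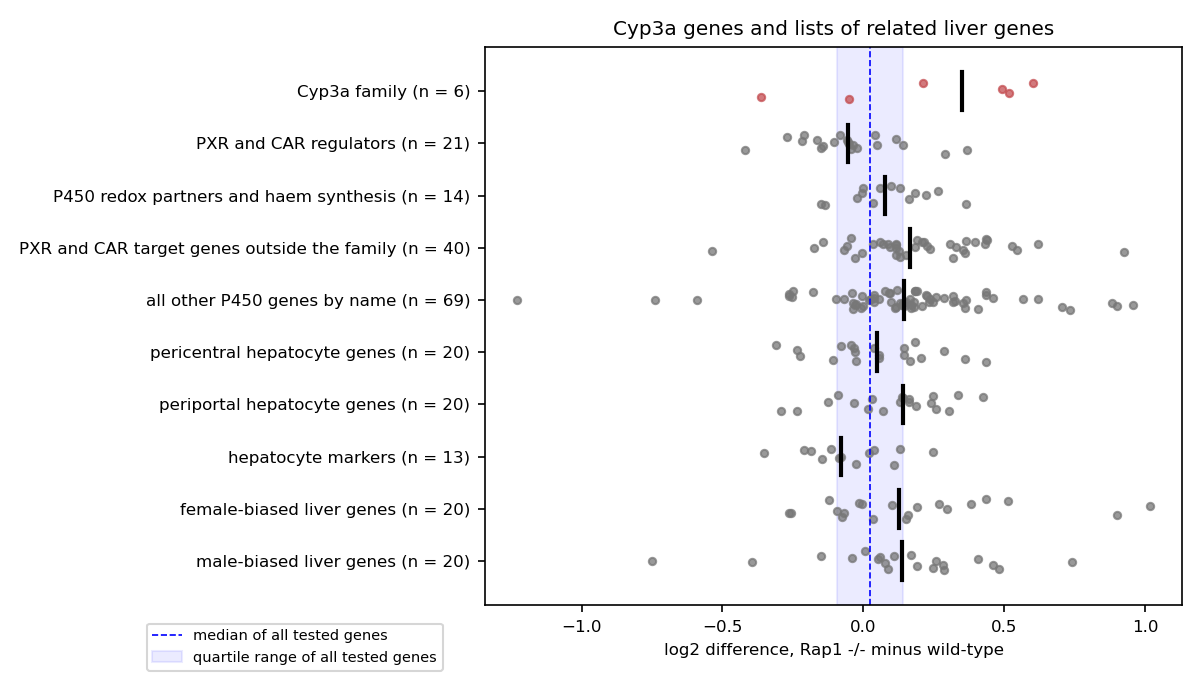
Each point is a gene placed by its log2 difference between Rap1 -/- and wild-type liver, with the 6 Cyp3a members in red, lists of related liver genes in grey, a black bar at each median, and the median and quartile range of all 14066 tested genes as a dashed line and a band. The Cyp3a median is 0.35, those of the PXR and CAR target genes and of the other P450 genes are 0.17 and 0.15, and that of the regulators is -0.05. The target list and the list of other P450 genes share members.

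Several Cyp3a genes depend on sex and on position in the liver lobule, so these lists were read too. Xist was well above background on all 8 arrays and Ddx3y, Kdm5d and Eif2s3y on 0 of 8. Uty was well above background on 1 Rap1 -/- array and on 0 wild-type arrays. Of the female-biased liver genes 12 of 20 were above 0 (median 0.13) and of the male-biased genes 16 of 20 (median 0.14). Pericentral genes, expressed near the central vein as Cyp3a11 is, had a median of 0.05 with 11 of 20 above 0, and periportal genes 0.14 with 15 of 20. In limma 0 genes of these 4 lists passed an adjusted p of 0.05. The lists held 1, 1, 1 and 0 genes with an unadjusted p under 0.05 in that fit, against 6.36% of all genes. The smallest p in each belonged to Rtn4 (0.27, SE 0.10), Nudt7 (0.74, SE 0.23), Lect2 (0.29, SE 0.11) and Otc (0.30, SE 0.13).

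Markers of the cells that a liver piece can hold were measured beside the family. Of the hepatocyte markers 5 of 13 were above 0, and the log2 of their summed relative signal was 13.47 to 13.58 in Rap1 -/- and 13.62 to 13.78 in wild-type liver, which did not overlap. The sums did overlap without scaling between arrays, at 21.27 to 21.36 and 21.23 to 21.33, and in the authors' table, at 21.25 to 21.31 and 21.25 to 21.28. Albumin (Alb) differed by -0.21 (SE 0.09) and Apoa2 by -0.35 (SE 0.10), both with an adjusted p of 0.77 in limma. Cholangiocyte markers, of bile duct cells, had 8 of 12 above 0 and a summed level of 3.99 to 4.89 against 3.63 to 4.13, with Krt19 at 0.59 (SE 0.19) and Spp1 at 0.69 (SE 0.24). Kupffer cell markers had 1 of 13 above 0 (median -0.13) and neutrophil markers 0 of 5 (median -0.70). Endothelial and stellate markers had medians of 0.03 and 0.01, and T and NK cell and B cell markers of -0.13 and -0.06.

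Intestinal epithelium also expresses Cyp3a genes, Cyp3a13 in particular. Of its 11 matched markers 4 were tested, 3 of them with a difference above 0, and their median was 0.41. Fabp2 differed by 0.31 (SE 0.13), Vil1 by 0.52 (SE 0.32), Slc5a1 by 0.72 (SE 0.44) and Lgals4 by -0.14 (SE 0.29). Vil1 was well above background on 3 knockout and 2 wild-type arrays, Slc5a1 on 3 and 1, Sis on 1 and 1 and Krt20 on 0 and 1. Cdx1, Cdx2, Alpi, Lct and Cdh17 were so on 0 of 8 arrays. The summed level of the tested markers was 5.58 to 5.97 in Rap1 -/- and 5.40 to 5.53 in wild-type liver. In the authors' table the groups overlapped (13.2 to 13.59 and 13.11 to 13.23). Most of the summed signal was that of Fabp2, whose wild-type mean was 5.18, against 2.89 for Lgals4, -3.73 for Vil1 and -4.49 for Slc5a1. Exocrine pancreas, adipocyte and erythroid markers had 6, 3 and 3 tested genes, and in limma 0 genes of any cell type list passed an adjusted p of 0.05. The part of these markers, and of the array percentile that was higher in every knockout, in the Cyp3a differences was not tested.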

How the data were processed

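Per the file headers, each array was extracted by the authors with Agilent Feature Extraction 10.7.3.1 into an intensity per spot, background-subtracted with no normalization between arrays. A log2 table was deposited by the authors as well, and the submitters' processing notes name limma. Its values lay within 0.05 of the scanner values after normexp correction (offset 50) and quantile normalization for 99.53% of cells. Of the extract, the labels give RNA integrity numbers of 6.5 to 8.5.

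Control and outlier spots were left out, repeated spots averaged, and each array's 75th percentile subtracted from log2 of the processed intensity. Symbols came from RefSeq accessions (GRCm38.p6) for 26056 probes, and 29625 stayed unnamed. The arrays were annotated on mm9, so coordinates belong only to the RefSeq windows. A probe was kept where 4 or more of the 8 arrays were well above background (31068 probes), and each gene was represented by its brightest such probe. Genotypes were compared with limma 3.58.1 in R 4.3.3 without covariates, and p values were adjusted by Benjamini and Hochberg over 14066 genes. SEs of representing probes come from the fit over genes and those of second probes from the fit over probes. The procedure was tested on simulated data with planted differences larger than those of the members, so the detection of differences as small as theirs was not tested.

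The members and the gene lists were chosen with earlier results of these data known. Named genes are the members, the other Cyp3a genes, Terf2ip, up to 4 genes of each regulator, partner and target list and up to 2 of each sex, zonation and cell type list with the smallest p, and 5 genes most like Cyp3a11. Nr1i2, Nr1i3, Hnf4a, Por, Cyp2b10 and the sex chromosome genes were named beside them for their role, and 2 genes that the rule would name are not reported here. Promoter windows were aligned globally with Biopython 1.88. Normexp correction used spot medians, since the files hold no spot means. Alternatives covered normalization, filter, probe choice, slide, replicate number, variance model and leaving out arrays. Precision is limited by the number of arrays.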

Additional observations from a re-analysis of the deposited data

How the results depend on the processing

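The differences of Cyp3a11, Cyp3a59, Cyp3a16 and Cyp3a25 stayed above 0 and that of Cyp3a44 below 0 under every alternative run. Cyp3a13 changed sign without scaling between arrays (0.13), within slide 1 (0.04) and without wild-type replicate 3 (0.01). The family's median of 0.35 ran from 0.27 to 0.40 as each array was left out, was 0.53 without scaling and 0.21 by the second probe where a gene has 2, both alternatives chosen after seeing the data. Cyp3a11 was at 0.78 and Cyp3a59 at 0.69 without scaling. Cyp3a59 was at 0.37 with the mean of its probes and at 0.21 by its second probe. The 3 members whose groups did not overlap became 2 by the second probe and with the mean of probes, where Cyp3a59 overlapped, and 2 with normexp and quantile normalization and in the authors' table, where Cyp3a16 overlapped. Within slide 2 there were 4, with Cyp3a13 lower in the knockout, and there were 3 in the other settings, slide 1 included. Within a slide 2 arrays stand against 2, so groups are more easily apart than with 4 against 4. The share of all genes apart within a slide was not counted, so nothing follows from the counts within slides. The 2 genes past the threshold became 3 with the mean of probes and with trended and robust variances. They became 1 with quantile normalization of the processed signal, with probes well above background on all 8 arrays, with no filter, with slide as a block, within slide 2, and with each array left out (1 to 1). They became 0 with normexp and quantile normalization, in the authors' value table and within slide 1. The cause was not tested. The replicate numbers did not pair the mice: same-numbered mice deviated with r between -0.18 and 0.10, 0 of 8 correlated best with their own number, and 0 genes passed with the replicate number as a block. The median SD within genotypes over the members was 0.16 and became 0.19 with normexp and quantile normalization and 0.19 in the authors' table. Regulators, partners and targets past the threshold stayed at 0 in the alternatives run. With 4 mice per genotype, a difference that missed the threshold is not shown to be absent.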
